A study of Mus musculus with 56 samples.

Results

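Medullary thymic epithelial cells (mTECs) sampled 6 days after delivery (D6) were compared with mTECs sampled in late gestation (D-2). The members were the mTEC samples that the labels place at these time points, 3 at D6 and 3 at D-2, which is 6 of the 56 samples of the series. B6.SJL females were mated with BALB/cJ males, and litters were taken away at birth, so D6 mice did not nurse. Each sample came from 1 mouse, and the labels do not say whether an mTEC and a cTEC sample of the same time point shared one. The ages of the mice are not given in the labels. Thymi were digested with papain, collagenase IV and DNase, and mTECs were sorted as EpCAM+ CD45- UEA1+ cells. The sort thus took all UEA1+ epithelium together, whatever its stage. Polyadenylated RNA was sequenced. In bulk RNA of this kind, fewer cells of a type and less RNA per cell cannot be told apart.

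During pregnancy the thymus shrinks, and it grows back after delivery. mTECs present proteins of the body's other tissues to developing T cells. Mature mTECs do so under the control of AIRE, and some go on to resemble cells of skin, gut, airway, muscle or sensory epithelium (mimetic mTECs). FOXN1 is the transcription factor that thymic epithelium of both regions depends on, and several of its known targets are most abundant in the cortex.

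Total expected counts were 9991569, 10080095 and 48195568 at D-2 and 16023121, 14555098 and 4561208 at D6 (replicates 1, 2 and 3). Of the sort markers, *Epcam* lay between 117 and 184 FPKM in the 6 samples. Of genes not used in the sort, *H2-Aa* lay between 2777 and 3575 FPKM and *Ccl21a*, the chemokine of the medulla, between 7515 and 13748 FPKM. *Aire* was found at 113, 149 and 50.1 FPKM at D-2 and at 116, 26.7 and 46.4 FPKM at D6, against means of 8.07 and 2.03 FPKM in cortical cells (cTECs) at the same time points. FPKM divides the fragments of a gene by its length and by the depth of the sample.

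Differential expression was tested with limma-voom in 17743 genes. With a change of 2-fold or more and an adjusted p no larger than 0.01, 18 genes (0.101%) were higher and 35 genes (0.197%) were lower at D6. At an adjusted p of at most 0.05 with no fold threshold, 171 genes (0.964%) were higher and 231 (1.30%) lower, and 257 of these 402 genes differed at least 2-fold. Genes whose 3 D6 samples all lay above the 3 D-2 samples on log2 CPM numbered 2403 (13.5%), and 2309 (13.0%) lay below. The median log2 fold change over all genes was 0.02. These are the background against which every list is read here. With 3 samples against 3, an exact permutation test of a single gene cannot give a p below 0.1, so the calls rest on the spread that limma shares across genes. They also rest on the full set of samples: without any 1 of the 6, the stricter rule called between 0 and 11 genes.

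The gene with the largest increase by the stricter rule was *Prss16*, a serine protease that thymic epithelium uses in the processing of self-peptides. *Prss16* was at 81.5, 32.3 and 67.6 FPKM at D-2 and at 242, 624 and 377 FPKM at D6 (log2 fold change 2.79 ± 0.38, SE, adjusted p = 0.00945). *Tbata*, a gene named for its expression in thymus, brain and testis, was at 566, 288 and 377 FPKM before and 1133, 1954 and 1462 FPKM after delivery (1.87 ± 0.26, adjusted p = 0.00945). The groups did not overlap for either gene, and D6 replicate 2 was the highest sample for both. *Crip3*, a LIM-domain gene of the thymus, rose from 129 ± 30.0 to 352 ± 68.9 FPKM (SD, n = 3). *Trpm2*, a calcium-permeable channel, was at 19.7, 4.15 and 8.72 FPKM at D-2 and at 18.4, 42.4 and 29.8 FPKM at D6. Its D-2 replicate 1 was above D6 replicate 1 in FPKM although the groups were separate on log2 CPM.

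*Hes6*, a helix-loop-helix factor that opposes HES1, was at 88.8, 52.2 and 70.0 FPKM at D-2 and at 255, 243 and 240.4 FPKM at D6 (log2 fold change 1.85 ± 0.19, adjusted p = 0.00461). The D6 samples lay close together and far above D-2. *Acta2*, the actin of smooth muscle, was at 98.3, 114 and 142 FPKM and then at 304, 301 and 450.5 FPKM (1.56 ± 0.20, adjusted p = 0.00945). *Cnmd* (chondromodulin) rose from 11.2 ± 1.46 to 45.7 ± 11.1 FPKM, *Brinp2* from 8.47 ± 2.89 to 22.5 ± 0.393, *Lypd1* from 29.9 ± 7.82 to 78.4 ± 8.8, and *Grp*, the gastrin-releasing peptide, from 31.8 ± 3.67 to 84.7 ± 12.8.

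The largest decrease was that of *Krt10*, the keratin of suprabasal skin. *Krt10* was at 38.5, 64 and 36.7 FPKM at D-2 and at 8.32, 4.95 and 3.49 FPKM at D6 (log2 fold change -3.01 ± 0.40, adjusted p = 0.00945). *Spink5*, an inhibitor of epidermal kallikreins, was at 30.7, 55.7 and 46.6 FPKM and then at 6.03, 6.18 and 6.02 FPKM (-2.81 ± 0.25, adjusted p = 0.00258). *Serpina3n*, an acute-phase protease inhibitor, was at 114, 89.6 and 159.5 FPKM before and 29.8, 8.54 and 16.7 FPKM after delivery (-2.84 ± 0.40, adjusted p = 0.00976). No D6 sample reached the lowest D-2 sample for any of these genes.

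*Fst* (follistatin, which binds activins) fell from 98.2, 88.5 and 120.2 FPKM to 25.3, 20.8 and 19.2 FPKM (-2.18 ± 0.19, adjusted p = 0.00252). *Angptl4*, a secreted inhibitor of lipoprotein lipase, fell from 27.5 ± 5.65 to 6.97 ± 3.81 FPKM. A pair of cytochrome P450 genes fell as well, *Cyp2g1* from 18.2 ± 2.7 to 2.6 ± 0.54 FPKM and *Cyp2a5* from 119 ± 41.3 to 26.1 ± 12.1. *Camk2n1*, an inhibitor of CaMKII, fell from 8.29 ± 0.172 to 1.73 ± 0.392 FPKM, and *Deptor*, a binding partner of mTOR, from 19.3 ± 1.4 to 5.85 ± 1.49. When all 28 mTEC samples shared 1 estimate of the spread, the adjusted p of *Krt10* was 0.582, that of *Camk2n1* 0.149 and that of *Fst* 0.00563. *Krt10* ranged from 2.04e-12 (DESeq2) to this value over the alternatives.

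**Figure D1:**
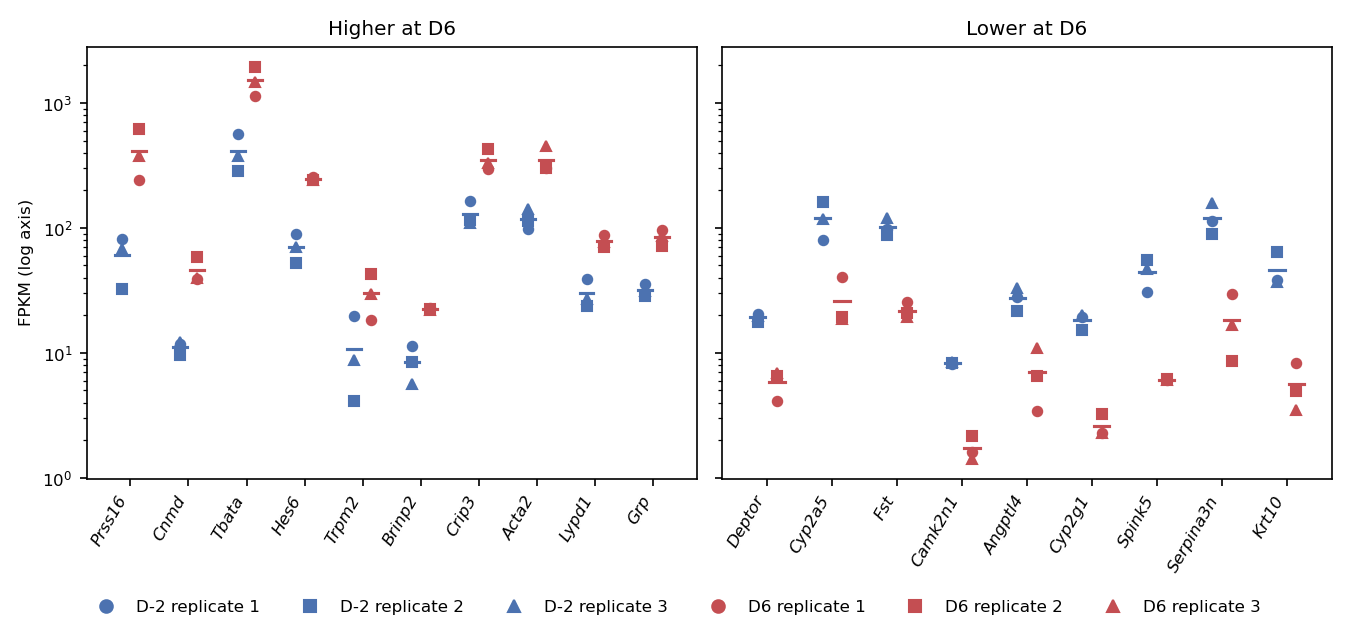
FPKM in each mTEC sample (log axis) of the 10 genes with the largest increase (left) and of 9 of the 10 with the largest decrease (right) among those past the stricter rule. Blue markers are D-2 and red markers D6, marker shape is the replicate, and horizontal lines are group means. *Prss16* rises from a mean of 60.4 to 415 FPKM, *Krt10* falls from 46.4 to 5.59, and *Spink5* is near 6 FPKM in every D6 sample.

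The cortical program was the list with the most genes called higher by limma-voom. DESeq2 called 16 of its members higher and 25 of the respiratory chain, and sample quality weights 17 and, of ribosomal proteins, 34. The list holds *Foxn1* and genes of cTEC identity or known FOXN1 targets. Of its 29 tested members, 8 rose at an adjusted p of 0.05 and none fell, and 17 were above D-2 in every D6 sample and 2 below, against 0.964% of all genes called higher and 13.5% above (median log2 fold change 0.92). *Psmb11*, the proteasome subunit of cTECs, was at 27.6, 5.69 and 13.6 FPKM at D-2 and at 53.9, 178 and 108 FPKM at D6 (2.98 ± 0.51, adjusted p = 0.0189). *Ccl25*, a chemokine that attracts thymocyte precursors, was at 440.4, 211 and 315 FPKM and then at 688, 1662 and 1168 FPKM (1.85 ± 0.33, adjusted p = 0.022). *Dll4*, the NOTCH ligand that commits precursors to the T lineage, rose from 5.89 to 18.5 FPKM and *Ctsl*, a cathepsin, from 669 to 1579 (group means). *Krt8* rose from 915 to 1830.1 and *Krt18*, its partner, from 1702 to 3964. *Foxn1* itself was at 137, 86.6 and 70.1 FPKM and then at 148, 260.2 and 192 FPKM. Its groups did not overlap, but it missed the threshold (1.08 ± 0.26, adjusted p = 0.0663).

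Other members of the list showed smaller differences or none. *Ly75*, the receptor CD205 of cTECs, had means of 9.52 and 19.7 FPKM (adjusted p = 0.173), and *Enpep*, also a cTEC surface marker, 6.6 and 6.3 FPKM (adjusted p = 0.791). *Pax9* had a log2 fold change of -0.26. The same genes were also measured in cTECs. At D6, *Prss16* averaged 2845 ± 251 FPKM in cTECs against 415 ± 194 in mTECs, and *Psmb11* 349 ± 114 against 113 ± 62.3. At D-2 the cTEC means were 221 and 27.3 FPKM. *Ccl25* and *Ly75* also had higher means in cTECs at both time points. Not every member did. *Foxn1* averaged 91.7 FPKM in cTECs and 97.8 in mTECs at D-2. At D6 it was at 314, 209 and 135 FPKM in cTECs against 148, 260.2 and 192 in mTECs. *Tbata* averaged 396 FPKM in cTECs and 410.4 in mTECs at D-2, but 3405 against 1517 at D6. The UEA1+ gate should leave cTECs out, and the part of cTECs that might remain in it was not tested. *Fut1*, whose product helps to make sugars that the lectin UEA1 binds, was at 26.9, 26.4 and 21.7 FPKM at D-2 and at 33.4, 28.4 and 36.3 FPKM at D6.

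Upstream sequences are shown for the called members of the cortical list that hold the letters of the FOXN1 core motif, GACGC (either strand, in capitals), in the 150 bases before the RefSeq start (GRCm38.p6). *Psmb11* is on the plus strand (chr14:54625160-54625309) and *Ccl25* also (chr8:4325060-4325209).
Psmb11: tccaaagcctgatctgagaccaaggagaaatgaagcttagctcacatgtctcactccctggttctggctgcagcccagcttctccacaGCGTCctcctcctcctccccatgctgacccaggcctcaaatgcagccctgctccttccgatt
Ccl25: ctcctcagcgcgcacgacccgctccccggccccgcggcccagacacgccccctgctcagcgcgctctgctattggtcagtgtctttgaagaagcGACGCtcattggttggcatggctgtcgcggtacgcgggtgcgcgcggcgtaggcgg
The motif was in 2 of the 7 called members with a window, in 8 of all 22 tested members with a window and in 16.8% of the windows of 27025 genes. In *Psmb11* it is on the minus strand and in *Ccl25* on the plus strand. A match of 5 letters is a description and not a binding site.

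Genes of DNA replication were higher at D6. Of 61 tested members, 58 had a positive log2 fold change. In every D6 sample 24 lay above D-2, against 13.5% of all genes, and none below. At an adjusted p of 0.05, 5 rose, against 0.964% of all genes (median 0.67). These 5 are *Mcm2*, *Mcm3* and *Mcm5* of the replicative helicase, *Pold1*, the catalytic subunit of polymerase delta, and *Rpa1*, which coats single-stranded DNA. *Mcm5* was at 8.58, 9.92 and 6.37 FPKM at D-2 and at 30.8, 17 and 23.1 FPKM at D6 (1.67 ± 0.27, adjusted p = 0.0151). *Mcm2* was at 3.77, 9.21 and 3.45 FPKM and then at 20.8, 7.77 and 6.94 FPKM (1.42 ± 0.31, adjusted p = 0.0456). In FPKM, D-2 replicate 2 of *Mcm2* was above D6 replicates 2 and 3. *Pcna*, the sliding clamp, went from 46.6 ± 11.8 to 55.7 ± 15.4 FPKM (adjusted p = 0.343), and *Rrm2*, of the enzyme that makes deoxynucleotides, was at 1.91, 3.92 and 2.54 FPKM and then at 9.81, 3.66 and 6.63 FPKM (adjusted p = 0.149). Both overlapped between the groups.

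The 150 bases upstream of *Mcm5* are shown because it has the largest change of the 5 called replication genes and is the only one of them with an E2F word there. The words searched were TTTCCCGC, TTTCGCGC, TTTGCCGC and TTTGGCGC on both strands. *Mcm5* is on the plus strand (chr8:75109359-75109508, GRCm38.p6) and holds TTTGGCGC on the minus strand (in capitals).
Mcm5: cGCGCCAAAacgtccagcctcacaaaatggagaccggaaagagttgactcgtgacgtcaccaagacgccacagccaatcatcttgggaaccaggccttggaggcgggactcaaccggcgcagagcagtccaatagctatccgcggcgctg
An E2F word was in 6 of 48 tested replication genes with a window and in 1.26% of all windows. The other 4 called genes have none of these words in the window, which says nothing of the factor itself.

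Genes of mitosis had a larger median, which rested on single libraries. The median log2 fold change over 46 tested genes was 1.23, with 44 positive, yet 3 genes were separate between the groups and 1, *Foxm1*, was called. Among all genes, 13.5% lay above D-2 in every D6 sample and 0.964% were called higher. *Foxm1*, a transcription factor of the G2 and M phases, was at 3, 4.72 and 1.88 FPKM and then at 11.6, 7.01 and 4.68 FPKM (1.63 ± 0.31, adjusted p = 0.0277). *Mki67* was at 9.83, 12.3 and 2.75 FPKM at D-2 and at 19.3, 8.44 and 10.7 FPKM at D6. *Top2a* was at 14, 20.8 and 4.41 FPKM and then at 41.7, 18.7 and 17 FPKM. The D6 samples stood 1.49, -0.15 and 0.59 above the D-2 mean (median log2 CPM over the list, replicates 1, 2 and 3), and D6 replicate 1 was by far the highest. Without D6 replicate 1 the list median was 0.60, and without D-2 replicate 3, the lowest in *Mki67*, it was 0.18. The voom fit gives deeper libraries more weight, and D-2 replicate 3 was the deepest of the 6. On log2(FPKM + 0.5) the list median was 0.34. There the samples count equally, but the scale is also another one than the log2 CPM of the fit. The part of the weights in the median was not tested. For the replication list the D6 samples stood at 0.94, 0.46 and 0.56, and the median without replicate 1 was 0.45, with 1 gene called.

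Ribosomal protein genes differed in 1 direction and by little. All 80 tested members had a positive log2 fold change (median 0.42) and 23 lay above D-2 in every D6 sample, against 13.5% of all genes, but none was called by limma-voom at an adjusted p of 0.05. At an unadjusted p under 0.05 there were 43. DESeq2 called 6 of them and edgeR 0. *Rps3* was at 579, 493 and 823 FPKM at D-2 and at 995, 869.7 and 1050.1 FPKM at D6 (0.65 ± 0.19, adjusted p = 0.1). *Rpl3* was at 779, 812 and 1102 FPKM and then at 1212, 1129.6 and 1229.7 FPKM (0.44 ± 0.16, adjusted p = 0.167). D-2 replicate 3 stood close to D6 for both. Summed over the list, D-2 gave 58509, 57856 and 85412 FPKM and D6 gave 90032, 81051 and 90385, so D-2 replicate 3 lay within the range of D6. Without D-2 replicate 3 the list median was 0.63. In cTECs the list had a median of -0.24.

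Factors of translation had a median log2 fold change of 0.24, and limma-voom called none of them higher. *Eef2*, the elongation factor, was at 1100.3, 1063 and 1323 FPKM and then at 1403, 1437 and 1569.5 FPKM (adjusted p = 0.183). The 3 of 44 members that limma-voom called fell. DESeq2 called 5 members higher and 3 lower, and sample quality weights 9 higher and 3 lower. *Eif2s2*, a subunit of the factor that brings the initiator tRNA, fell from 215, 209 and 194 FPKM to 126, 90.3 and 94.8 FPKM (-0.95 ± 0.15, adjusted p = 0.0136), and *Eif5b* and *Eif5* fell by 0.86 and 0.69 on the log2 scale. In nucleolar ribosome assembly, 3 of 58 genes rose, against 0.964% of all genes, and none fell (median 0.32). *Fbl* (fibrillarin, which methylates ribosomal RNA) rose from 76.3, 59.7 and 56.4 FPKM to 124, 117 and 120.3 FPKM (0.96 ± 0.16, adjusted p = 0.0165), and *Nop56* and *Noc2l* by 0.63 and 0.72 on the log2 scale. *Npm1* had a log2 fold change of 0.02 (adjusted p = 0.947).

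Nuclear genes of mitochondrial proteins were mostly higher, and those of the mitochondrial genome made up less of the counts. Of 75 nuclear genes of the respiratory chain and ATP synthase, 71 had a positive log2 fold change (median 0.44). In every D6 sample 55 lay above D-2 and none below, and 6 rose. Among all genes, 13.5% lay above and 0.964% rose. *Ndufa11*, a subunit of complex I, was at 30.5, 23.4 and 32.3 FPKM and then at 65.3, 77.5 and 80.5 FPKM (1.36 ± 0.18, adjusted p = 0.00945). *Sdhb*, of complex II, was at 71, 53.5 and 59.3 FPKM and then at 105, 93.2 and 108 FPKM (0.75 ± 0.16, adjusted p = 0.0447). *Ndufc1* and the ATP synthase genes *Atp5d*, *Atp5g1* and *Atp5g3* rose by 1.13, 0.63, 0.74 and 0.78 on the log2 scale. Without D6 replicate 1, 1 member was called, and in the fit of all 28 mTEC samples none. *Cox4i1* overlapped between the groups (adjusted p = 0.419). Among 78 proteins of the mitochondrial ribosome, 71 were positive, 40 were above and 2 below in every D6 sample, and none was called (median 0.33). *Mrpl3* was at 29.2, 29.8 and 29.9 FPKM and then at 43.1, 64.5 and 41.6 FPKM (adjusted p = 0.118). limma called 0 of the 78, with 15 at an unadjusted p under 0.05, DESeq2 3 and edgeR 0. The 13 protein-coding genes of the mitochondrial genome made up 2.27%, 2.78% and 2.19% of the counts at D-2 and 1.91%, 1.77% and 2.09% at D6.

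**Figure D2:**
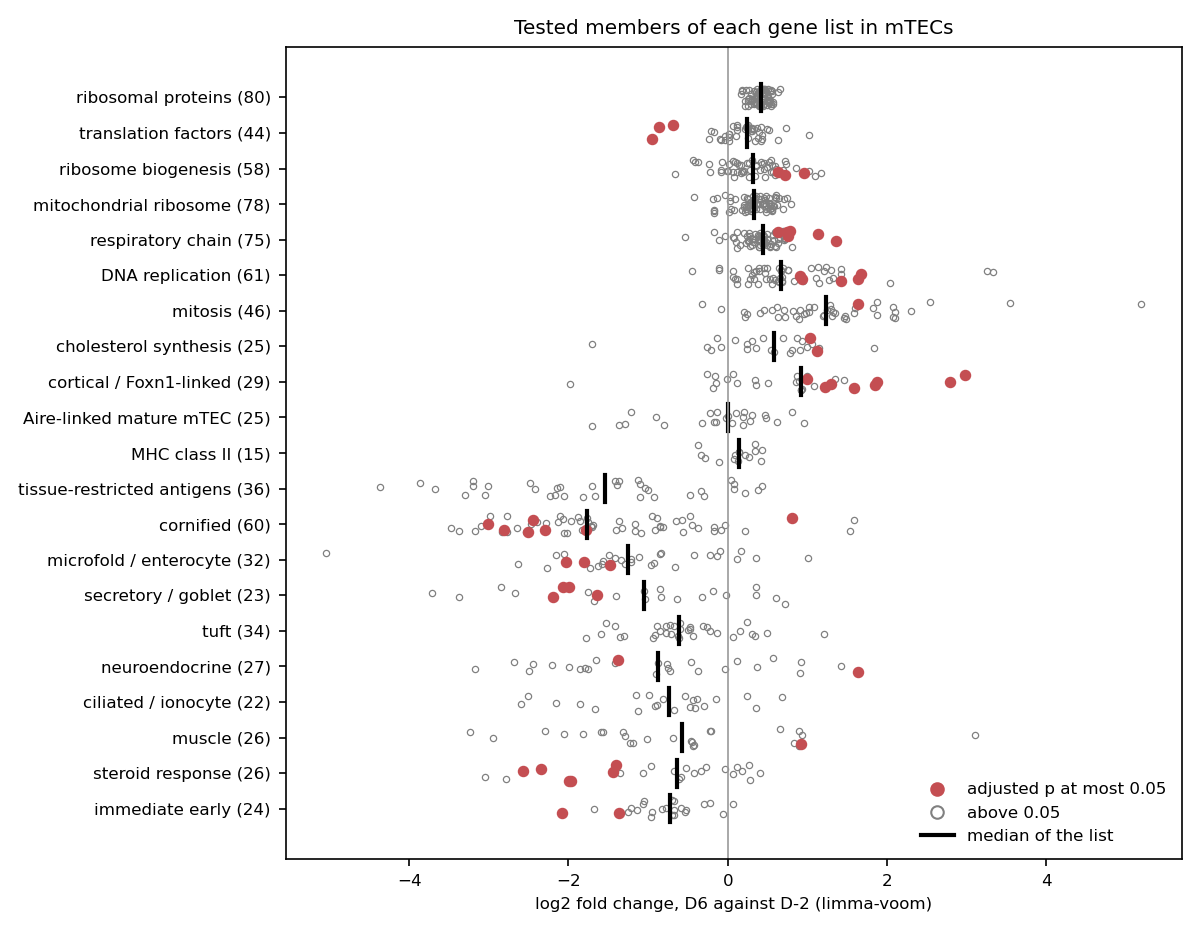
log2 fold change of D6 against D-2 in mTECs for every tested member of each list, with the number tested in brackets. Red points passed an adjusted p of 0.05, open points did not, and black bars are list medians. The 80 ribosomal protein genes lie close together around 0.42 with none called, while the cornified list spreads widely around -1.77.

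The list of genes linked to AIRE and the mature stage did not move in 1 direction. It is mixed, and its median is not a measure of mature cells alone. It holds *Hdac3*, *Chd4* and *Relb* (log2 fold changes of 0.62, 0.10 and 0.30) beside *Cd86* and *Ccl22* (-1.37 and -1.29). The median over 25 genes was 0.00, between -0.37 (without D6 replicate 1) and 0.21 (without D6 replicate 2), and none was called by limma-voom, with 7 at an unadjusted p under 0.05. edgeR called 1 lower, and DESeq2 1 higher and 2 lower. *Aire* had a log2 fold change of -0.80 ± 0.51 (adjusted p = 0.405). *Fezf2*, the other regulator of tissue-restricted genes, was at 145, 148 and 121 FPKM and then at 185, 188 and 189.6 FPKM (0.47 ± 0.13, adjusted p = 0.097). *Cd80*, a costimulatory ligand, was at 19.6, 37.5 and 10.3 FPKM and then at 5.6, 4.16 and 5.42 FPKM (-1.71 ± 0.61, adjusted p = 0.161). *Fezf2* was thus above and *Cd80* below in every D6 sample, and neither passed the test. MHC class II genes had a median of 0.14 over 15 genes with none called (2 at an unadjusted p under 0.05, and 0 called by edgeR or DESeq2). *H2-Aa*, *H2-Ab1*, *Cd74* and *Ciita* had log2 fold changes between 0.09 and 0.34. In the class I list, 1 of 16 genes rose, against 0.964% of all genes. It was the immunoproteasome subunit *Psmb10*, from 318, 228 and 246 FPKM to 527, 582 and 471 FPKM (1.12 ± 0.17, adjusted p = 0.0121).

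Immature and CCL21-producing mTEC genes were mixed as well (19 genes, median -0.17). *Krt5*, the basal keratin of the medulla, rose from 2156, 1785 and 2151 FPKM to 2788, 4409.7 and 4819 FPKM (0.97 ± 0.21, adjusted p = 0.0428). *Sox4* fell from 914, 589 and 681 FPKM to 256, 252 and 354 FPKM (-1.32 ± 0.20, adjusted p = 0.0121). *Ccl21a* did not pass (0.29 ± 0.22, adjusted p = 0.474). In the list of epithelial markers 4 of 14 genes were called higher, all of them keratins, against 0.964% of all genes. Of these, *Krt8* and *Krt18* are also in the cortical list and *Krt5* in the immature list. *Krt17* went from 1294, 1312 and 1409 FPKM to 2255, 2343 and 2486 FPKM (0.84 ± 0.12, adjusted p = 0.0117). *Krt19*, of simple epithelium, was the 1 gene called lower, from 42.3, 60.6 and 57 FPKM to 32.7, 30.6 and 29.9 FPKM.

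Tissue-restricted antigen genes were lower at D6 in most members, and none was called by limma-voom at an adjusted p of 0.05. Of 36 tested, 30 had a negative log2 fold change (median -1.54). In every D6 sample 12 lay below D-2, against 13.0% of all genes, and none above. There were 15 genes at an unadjusted p under 0.05. DESeq2 called 4 lower and edgeR 0. *Csn2* (beta-casein) was at 194, 246 and 184 FPKM at D-2 and at 190.3, 27.2 and 42.7 FPKM at D6 (-1.67 ± 0.52, adjusted p = 0.123). D6 replicate 1 was thus at the level of D-2. *Crp*, of liver, had a log2 fold change of 0.43 and *Ins2*, insulin, was at 0 in 3 of the 6 samples. The D6 samples stood -0.33, -2.17 and -1.89 from the D-2 mean over the list. The median was -2.19 without D6 replicate 1, with 1 gene called, and -0.75 without D6 replicate 2.

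Cornified, keratinocyte-like genes were lower more evenly. Of 60 tested, 56 had a negative log2 fold change, 36 lay below D-2 in every D6 sample and 2 above, 6 fell and 1 rose, against 13.0% of all genes below and 1.30% called lower (median -1.77). Beside *Krt10* and *Spink5* above, *Rptn* (repetin) fell from 15.7, 27.4 and 12.8 FPKM to 4.3, 2.13 and 2.16 FPKM (-2.51 ± 0.43, adjusted p = 0.0186). *Dmkn* (dermokine) fell from 37, 44.6 and 61.7 FPKM to 16.7, 10.1 and 6.89 FPKM (-2.29 ± 0.42, adjusted p = 0.0241). *Krt77* and *Krt6a* fell by 2.45 and 1.78 on the log2 scale. *Ivl* (involucrin) was at 3.32, 4.1 and 4.23 FPKM and then at 1.9, 0.34 and 0.24 FPKM, and did not pass (adjusted p = 0.118). The gene that rose was *Pkp1*, a desmosome protein (0.80 ± 0.14, adjusted p = 0.0225). D6 replicate 1 was again nearest to D-2, at -0.87 against -2.46 and -1.70. Without it 11 members were called lower and the median was -2.30, and without D6 replicate 2 it was -0.97. The fit of all 28 mTEC samples called 1 member lower, edgeR 9 and DESeq2 22.

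Genes of microfold cells and enterocytes fell in 3 of 32 and rose in none, and 13 lay below in every D6 sample (median -1.25). The shares over all genes were 1.30% called lower and 13.0% below. *Gp2*, the bacterial uptake receptor of microfold cells, was at 45, 72.4 and 64.7 FPKM and then at 30.7, 17.4 and 13.4 FPKM (-1.48 ± 0.27, adjusted p = 0.0262). *Reg3g*, an antibacterial lectin of gut, was at 159.6, 249 and 238 FPKM and then at 123, 33.2 and 38.6 FPKM (-1.81 ± 0.40, adjusted p = 0.0473). *Muc13* fell by 2.03 on the log2 scale. Without D6 replicate 1, 5 members were called lower, in the fit of all 28 mTEC samples 1, and the median was -0.65 without D6 replicate 2. The regulators *Hnf4a* and *Sox8* overlapped between the groups at means under 2 FPKM.

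Secretory genes fell in 4 of 23, against 1.30% of all genes (median -1.05). *Muc5b*, a gel-forming mucin, fell from 2.45, 4.23 and 4.69 FPKM to 0.65, 0.96 and 1.18 FPKM (-2.19 ± 0.35, adjusted p = 0.0151). *Bpifa1*, an airway defense protein, fell from 63.4, 47.3 and 63.4 FPKM to 16.5, 23.1 and 13.7 FPKM (-1.64 ± 0.25, adjusted p = 0.0126). *Pigr*, the transporter of polymeric antibodies, and *Lcn2*, an iron-scavenging lipocalin, fell by 2.07 and 1.99. These falls were seen in all D6 samples, replicate 1 included. The list median was -1.63 without D6 replicate 1, with 2 called lower, and -0.55 without D6 replicate 2, and the fit of all 28 mTEC samples called none. *Spdef* and *Agr2*, at under 6 FPKM throughout, overlapped between the groups.

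Tuft cell genes were lower in 27 of 34 (median -0.61). In every D6 sample 15 lay below, against 13.0% of all genes, and none above. None was called by limma-voom. There were 10 at an unadjusted p under 0.05. edgeR called 2 and DESeq2 11 lower. *Trpm5*, the taste-transduction channel, was at 19.6, 16.7 and 15.7 FPKM and then at 12.8, 9.62 and 8.68 FPKM (-0.61 ± 0.20, adjusted p = 0.142). *Avil* (advillin) was at 30.5, 38.6 and 22 FPKM and then at 18.6, 15.5 and 7.36 FPKM (adjusted p = 0.129). *Pou2f3*, the master regulator of tuft cells, was at 9.07, 12.7 and 11.7 FPKM and then at 16.2, 11.5 and 16.4 FPKM (0.34 ± 0.21, adjusted p = 0.405), and *Dclk1* had a log2 fold change of -0.14. *Pou2f3* thus overlapped between the groups, while *Trpm5* and *Avil* did not.

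Other mimetic lists held few calls by limma-voom. The median over 27 neuroendocrine genes was -0.87, and between -1.24 and -0.74 with 1 library left out. By limma-voom *Scg2*, a granin, fell (-1.38 ± 0.27, adjusted p = 0.034) and *Stmn2*, a microtubule protein of neurons, rose (1.64 ± 0.31, adjusted p = 0.0288). DESeq2 called 6 members lower and 1 higher, and edgeR 1 lower. *Chga*, the chromogranin that marks such cells, was at 522, 405 and 89.2 FPKM and then at 79.9, 131 and 21.4 FPKM, with overlap. Of 22 ciliated cell and ionocyte genes none was called (median -0.74, 3 at an unadjusted p under 0.05, and 0 by edgeR or DESeq2), and *Foxj1*, the regulator of motile cilia, was at 11.5, 11.9 and 8.02 FPKM and then at 7.52, 4.38 and 3.19 FPKM. Of 26 skeletal muscle genes (median -0.58, or -1.32 without D6 replicate 1 and -0.17 without D6 replicate 2), *Actn3* rose from 295, 258 and 195 FPKM to 358, 424 and 492 FPKM (0.92 ± 0.17, adjusted p = 0.0254). *Myog* (myogenin) was lower in every D6 sample, at 2.21, 1.27 and 0.31 FPKM against 4.54, 2.46 and 5.45.

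**Figure D3:**
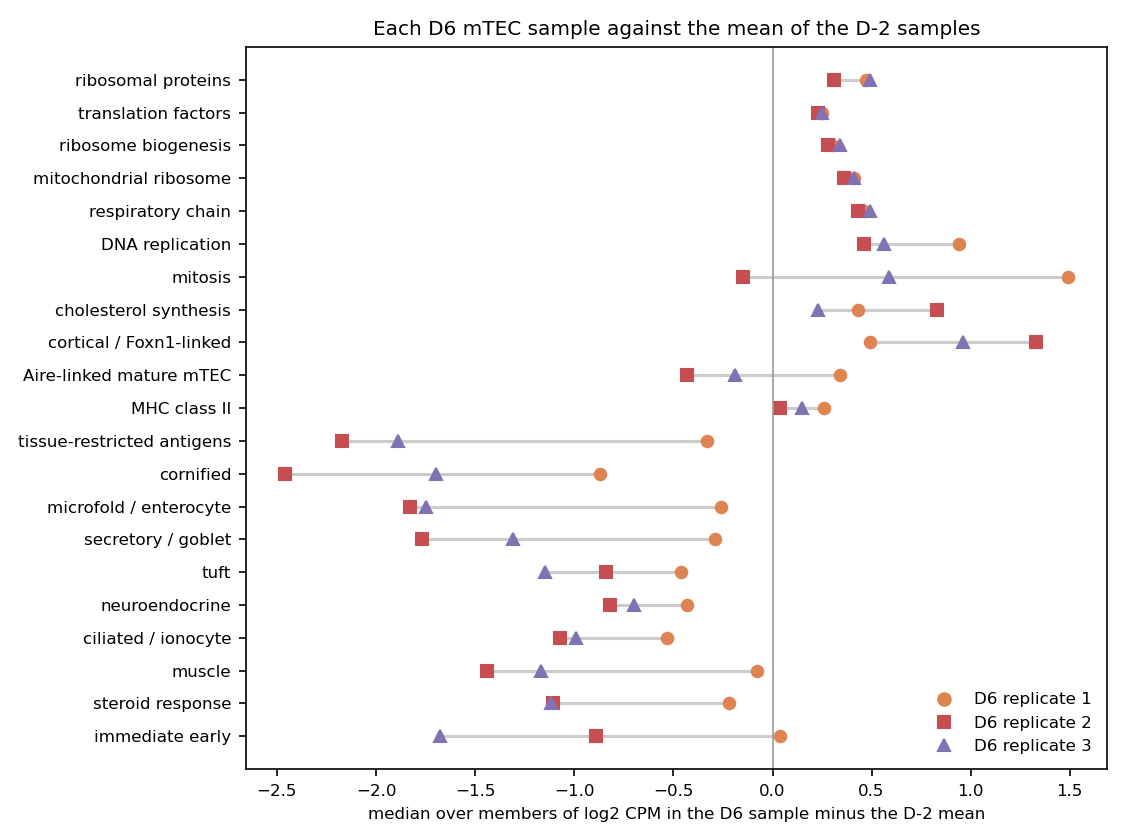
Median over the members of each list of log2 CPM in each D6 mTEC sample minus the mean of the D-2 samples. Circles are D6 replicate 1, squares replicate 2 and triangles replicate 3. Replicate 1 is nearest to 0 for the tissue-restricted list (-0.33 against -2.17 and -1.89) and farthest from 0 for mitosis (1.49 against -0.15 and 0.59).

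Genes that steroid hormone receptors generally induce fell in 6 of 26, against 1.30% of all genes (median -0.64). *Zbtb16*, a zinc finger factor, fell from 6.73, 4.73 and 5.97 FPKM to 2.02, 2.35 and 1.61 FPKM (-1.44 ± 0.27, adjusted p = 0.0281). *Klf9* fell from 175, 111 and 112 FPKM to 58.8, 44.4 and 40.8 FPKM (-1.40 ± 0.21, adjusted p = 0.0121). *Cdkn1c*, a cell cycle inhibitor, *Pdk4*, a brake on glucose oxidation, *Angptl4* and *Lcn2* also fell. Without D6 replicate 1 the median was -1.29, with 5 called, and in the fit of all 28 mTEC samples 1 gene was called. Other members did not pass. *Fkbp5*, a glucocorticoid target, was at 34.4, 30.0 and 34.5 FPKM and then at 41.5, 38.6 and 37 FPKM (adjusted p = 0.359), and *Tsc22d3* had a log2 fold change of -0.03.

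Of the 22 receptors and feedback genes, *Socs2*, the feedback inhibitor of prolactin and growth hormone signals, fell from 123, 104 and 84 FPKM to 50.2, 52 and 58.2 FPKM (-1.03 ± 0.17, adjusted p = 0.0151). *Prlr*, the prolactin receptor, was at 9.85, 22.1 and 5.36 FPKM and then at 4.09, 2.63 and 1.69 FPKM (adjusted p = 0.116). *Pgr*, the progesterone receptor, was at 4.33, 5.12 and 5.48 FPKM and then at 2.39, 3.31 and 2.49 FPKM (adjusted p = 0.101). Both lay below in every D6 sample without passing the test. *Esr1* and *Nr3c1* had log2 fold changes of 0.46 and -0.09.

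Defense genes fell in small numbers. In the acute-phase list 4 of 22 fell, against 1.30% of all genes (median -0.64). Beside *Serpina3n* and *Lcn2* these were *Cp* (ceruloplasmin, -1.71 ± 0.31, adjusted p = 0.0248) and *Il6ra* (-1.02 ± 0.22, adjusted p = 0.0428). *C3* had a log2 fold change of -0.17. Without D6 replicate 1 the median was -1.03 with 1 gene called, and the fit of all 28 mTEC samples also called 1. Among 39 interferon-stimulated genes, *Ifit1* and *Gbp7* fell, against 1.30% of all genes (median -0.28). *Ifit1* was at 268, 185 and 278 FPKM and then at 139, 113 and 138 FPKM (-0.88 ± 0.19, adjusted p = 0.0413).

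In NOTCH signaling 4 of 21 genes rose and 1 fell, against 0.964% and 1.30% of all genes (median 0.20). Beside *Hes6* and *Dll4*, *Heyl* rose from 28.3, 25.5 and 23.2 FPKM to 36.9, 69.5 and 55.9 FPKM (1.10 ± 0.23, adjusted p = 0.0384), and *Mfng*, which modifies NOTCH receptors, from 5.39, 5.74 and 2.46 to 9.14, 9.18 and 10.1 FPKM. *Jag1*, a ligand, fell by 0.69 on the log2 scale. *Notch1* and *Hes1* had log2 fold changes of 0.04 and -0.34. In cholesterol synthesis 2 of 25 genes rose, against 0.964% of all genes (median 0.58). *Srebf2*, the regulator of the pathway, rose from 27.9, 24.9 and 28.5 FPKM to 47, 64.1 and 54.9 FPKM (1.03 ± 0.16, adjusted p = 0.0126), and *Fdps* from 15.5, 15.9 and 12.4 to 29.4, 32.4 and 24.7 FPKM.

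WNT and BMP readouts (23 genes, median -0.01) and genes of glycolysis and hypoxia (27 genes, median 0.17) held no call by limma-voom, with 5 and 11 genes at an unadjusted p under 0.05. edgeR called 1 WNT and BMP gene lower and no glycolysis gene, and DESeq2 called 2 WNT and BMP genes lower and, in glycolysis, 4 higher and 1 lower. *Axin2* had a log2 fold change of 0.32, *Id1* of -0.24 and *Vegfa* of -0.26. *Pgk1* was at 41.6, 48.4 and 48.4 FPKM and then at 66.8, 65.6 and 70.4 FPKM (adjusted p = 0.0788). Among 30 genes of the unfolded protein and integrated stress responses (median -0.15), *Psat1*, of serine synthesis, rose from 40.1, 37.6 and 32.4 FPKM to 62, 75.9 and 72.6 FPKM (0.97 ± 0.21, adjusted p = 0.0428). *Hspa5* had a log2 fold change of -0.32.

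Immediate-early and dissociation-stress genes, which enzymatic digestion of tissue is known to induce, were lower in 23 of 24 (median -0.73). By limma-voom 2 were called lower, against 1.30% of all genes. *Ier3*, *Dusp1*, *Hsp90aa1*, *Klf4* and *Klf6* lay below D-2 in every D6 sample, as did 13.0% of all genes, and the other members overlapped. *Klf4* fell from 335, 326 and 349 FPKM to 141, 71.7 and 38.3 FPKM (-2.08 ± 0.34, adjusted p = 0.0151), and *Hsp90aa1* from 2172, 1243 and 1574 to 594, 372 and 431 FPKM (-1.36 ± 0.21, adjusted p = 0.0121). Without D6 replicate 1 the median was -1.25, with 5 called, and without D6 replicate 3 it was -0.36. *Fos* was at 2575, 1939 and 2277 FPKM and then at 2789, 1380.0 and 510.4 FPKM (adjusted p = 0.38). D6 replicate 1 stood at 0.04 from the D-2 mean over the list, replicate 2 at -0.89 and replicate 3 at -1.68. The part of this list in the other differences was not tested.

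Some markers of other cell types were near 0 and others were not. Over 23 thymocyte genes the summed level was between 61.4 and 85.2 FPKM at D-2 and between 88.2 and 127 FPKM at D6. The median log2 fold change was 1.31, or 0.46 on log2(FPKM + 0.5). In every D6 sample 8 lay above D-2, against 13.5% of all genes, and 1 was called higher, against 0.964%. This was *Rag1*, the recombinase of thymocytes, which rose from 0.26, 0.71 and 0.25 FPKM to 2.56, 1.38 and 1.24 FPKM (2.62 ± 0.50, adjusted p = 0.029). *Cd3e* stayed under 1 FPKM in every sample. Macrophage, dendritic and B cell genes summed to between 197 and 313 FPKM at D-2 and between 53.1 and 193 FPKM at D6, with *Laptm5* (means 131 and 65.8 FPKM) and *Lyz2* (59.2 and 19.7 FPKM) the most abundant, and none of 18 was called by limma-voom, 2 at an unadjusted p under 0.05, 0 by edgeR and 1 by DESeq2. *Itgax* was at 0 in 5 of the 6 samples. Endothelial and erythroid genes summed to between 30.8 and 35.1 FPKM and then between 8.4 and 32.6 FPKM, and *Pecam1* was at 1.6 FPKM at most. Of 15 fibroblast and pericyte genes *Acta2* alone was called, and it was higher, as were 0.964% of all genes. *Col1a1* was at 8.26, 12.7 and 4.26 FPKM and then at 4.91, 0.99 and 1.01 FPKM, and *Pdgfrb* at means under 3 FPKM. *Dcn* (decorin, of fibroblasts) had means of 125 and 111 FPKM, *Rgs5*, of pericytes, of 63.6 and 54.2 FPKM, and *Col3a1* of 12.1 and 8.83 FPKM, and none of these passed the test. The part of other cell types in the differences was not tested.

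Outside the lists, further genes among the 402 were chosen after their values were seen. They form no list, and no count over such genes was made. *Tpm2*, a tropomyosin, was at 293, 295 and 343 FPKM and then at 637, 594 and 749 FPKM (1.08 ± 0.15, adjusted p = 0.00945). *Tagln*, *Myl9*, *Myh11* and *Flna* rose by 1.10, 1.29, 0.94 and 0.99 on the log2 scale. So did *Tnc*, a matrix protein, from 161, 149 and 157 FPKM to 331, 333 and 315 FPKM (1.09 ± 0.12, adjusted p = 0.00796), and *Mmp9*, a matrix metalloproteinase, from 59.8, 44.2 and 57.5 to 151, 130.5 and 151 FPKM. In all 3 D6 samples these genes were above D-2.

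Others of these genes fell. *Srsf11*, of spliceosome assembly, was at 291, 313 and 282 FPKM and then at 90.9, 62.4 and 77 FPKM (-1.69 ± 0.14, adjusted p = 0.00252), and *Rbm25* at 319, 327 and 286 and then at 139, 110.1 and 104 FPKM (-1.45 ± 0.14, adjusted p = 0.00461). *Rbm39*, *Luc7l3*, *Son* and *Top1* fell by 1.10, 1.11, 1.25 and 1.16 on the log2 scale. The shares of counts that went to some RNAs that stay in the nucleus or carry no poly(A) tail were lower at D6. *Malat1*, a nuclear RNA, made up 0.361%, 0.783% and 0.217% of the counts at D-2 and 0.0683%, 0.0872% and 0.108% at D6. *Gm42418*, which overlaps a ribosomal RNA sequence, made up 3.06%, 3.26% and 0.838% and then 0.532%, 0.564% and 0.333%. Mitochondrial ribosomal RNA made up 1.12%, 1.04% and 0.567% and then 0.357%, 0.329% and 0.245%. D-2 replicates 1 and 2 were thus the highest in these RNAs and D-2 replicate 3 was nearest to D6, as it was for the summed ribosomal proteins. In D-2 replicate 3, *Srsf11*, *Rbm25*, *Rbm39*, *Luc7l3* and *Top1* were at 282, 286, 368, 299.6 and 156 FPKM, above every D6 sample. Its shares of *Malat1*, *Gm42418* and mitochondrial ribosomal RNA were also above every D6 sample. The part of these RNAs in the other differences was not tested.

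The remaining mTEC time points place this pair of groups. NPC are non-pregnant females. *Prss16* averaged 151 ± 20.1 FPKM in NPC and 60.4 at D-2. Its mean was 116 ± 6.11 on the day of birth (D0), 322 ± 104 at D3 and 415 at D6, and it was back at 101 ± 68 by D12. *Psmb11* was between 7.77 and 26.6 FPKM in NPC, against a mean of 15.6 at D-2, 113 at D6 and 16.5 ± 13.6 by D12. For both genes D6 had the highest mean of the time points with 3 samples. *Acta2* was at 439 ± 47 FPKM in NPC and 401 ± 54.4 at D12, so D-2, at 118, was the low group. *Krt10* averaged 17.5 ± 12 FPKM in NPC. It was highest at D-2 (46.4), and went to 22.8 ± 13.1 by D3, 5.59 by D6 and 10.3 ± 4.89 by D12. *Fst* was at 33.5 ± 12.4 FPKM in NPC and 25.3 ± 6.27 at D12, near D6 (21.8) and under D-2 (102). *Mcm5* was at 25.4 ± 10.2 FPKM in NPC and 30.2 ± 3.44 at D12, and D6 (23.6) lay between D-2 (8.29) and these.

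On log2(FPKM + 0.5), the cortical list stood 0.20 above D-2 in NPC, 0.71 by D3, 0.93 by D6 and 0.03 by D12. The cornified list stood at -0.16, -1.05, -1.27 and -0.16 and the tissue-restricted list at 0.29, -1.28, -1.06 and 0.64. Mitosis stood at 1.03 in NPC, -0.83 by D3, 0.29 by D6 and 1.29 by D12. D6 was therefore the highest of these 4 for the cortical list and the lowest for the cornified list. No test was made across time points.

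**Figure D4:**
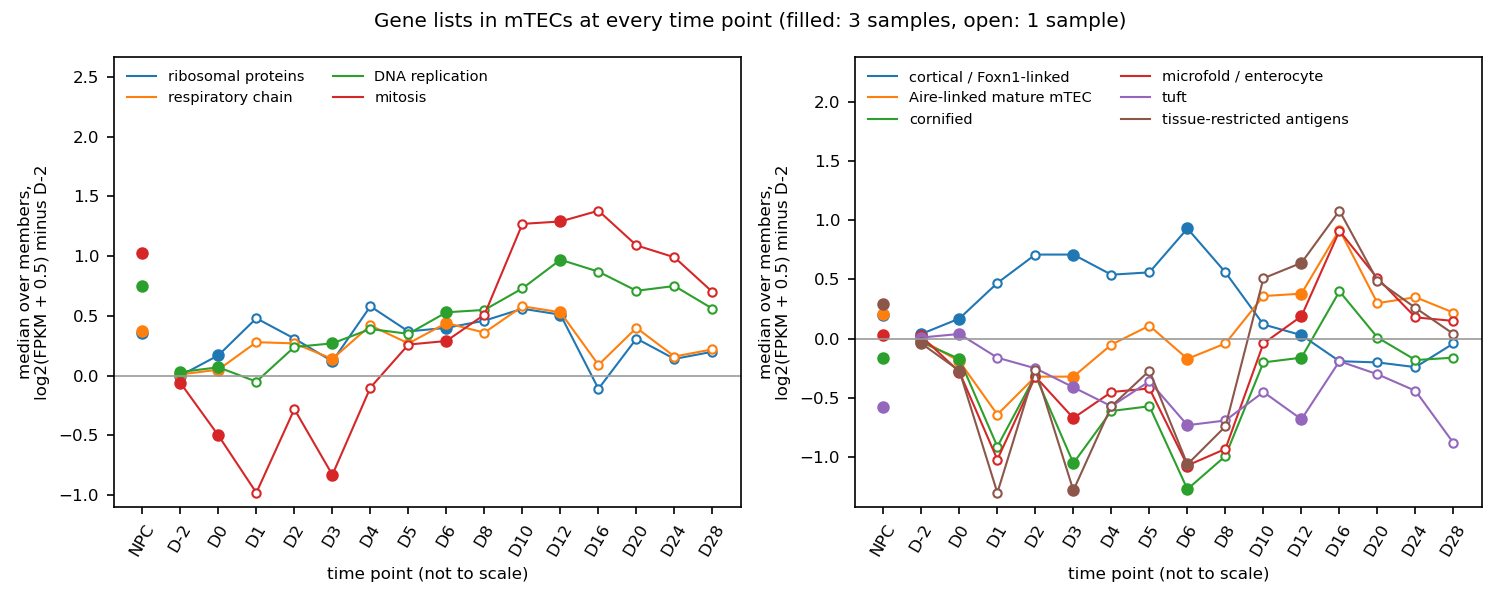
Median over list members of log2(FPKM + 0.5) minus the D-2 mean, at each mTEC time point in order (not to scale). Filled points are means of 3 samples and open points single samples. The cortical list peaks at D6 (0.93) and is at 0.03 at D12, while mitosis is at -0.83 at D3 and 1.29 at D12.

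The change in mTECs was set against that in cTECs with an interaction in 12 samples and 18394 genes. At an adjusted p of 0.05 the change was more positive in mTECs for 7 genes (0.0381%) and more negative for 6 (0.0326%). With the mouse number of the titles as a block, 30 genes were called, these 13 among them. *Fabp5*, a fatty acid carrier, had means of 328 and 489 FPKM in mTECs and of 194 and 1836 FPKM in cTECs (difference of log2 changes -2.60 ± 0.24, adjusted p = 0.000221). *Fasn*, the fatty acid synthase, had means of 21.1 and 31.7 FPKM in mTECs and 31.2 and 188 FPKM in cTECs (-2.06 ± 0.33, adjusted p = 0.0283). In the other direction, the collagen genes *Col6a1* and *Col6a2* were level in mTECs (276 and 291 FPKM, and 271 and 307 FPKM) and lower at D6 in cTECs (142 and 50.7 FPKM, and 91.1 and 33.4 FPKM), with differences of 1.65 ± 0.27 and 1.64 ± 0.25 (adjusted p = 0.0384 and 0.0283). *Srsf11* was the 1 gene of the 13 that was also called in mTECs with the stricter rule.

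None of the cortical list passed the interaction. *Prss16* changed by 2.79 in mTECs and 3.71 in cTECs (adjusted p of the difference = 0.453), *Psmb11* by 2.98 and 3.67 (0.715), *Dll4* by 1.58 and 3.95 (0.151) and *Foxn1* by 1.08 and 1.15 (0.955). List medians in mTECs and cTECs were 0.92 and 1.15 for the cortical list, 0.67 and 0.47 for DNA replication, 1.23 and 1.13 for mitosis, 0.58 and 1.69 for cholesterol synthesis, and -1.77 and -1.83 for cornified genes. Those of the tissue-restricted list were -1.54 and -3.94. Those of the ribosomal proteins were 0.42 and -0.24, and none of the 80 genes passed the interaction. The cTEC medians cover only members whose FPKM averaged 0.5 or more across the 28 cTEC samples. The medians of a list can thus rest on different genes. *Ivl* and *Lor* of the cornified list, for example, had no cTEC value.

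**Figure D5:**
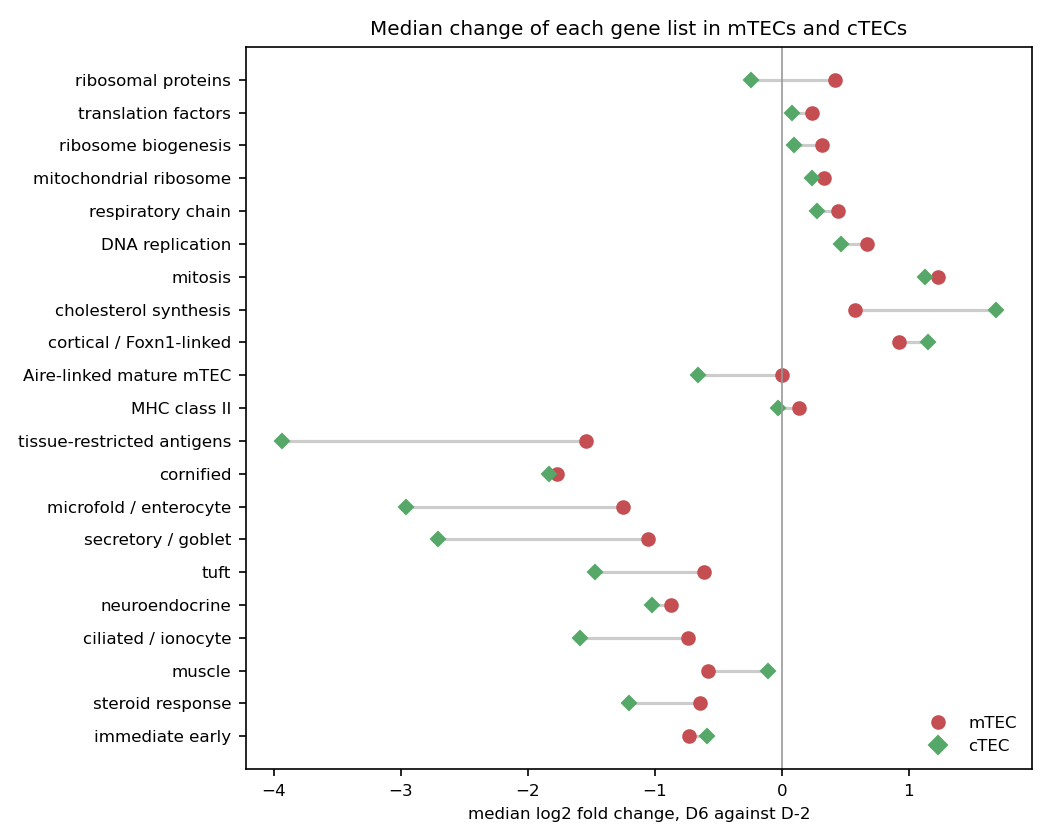
Median log2 fold change of D6 against D-2 for each list in mTECs (red circles) and cTECs (green diamonds), each from 3 samples against 3. The cTEC medians cover only those members that also passed the FPKM filter in cTECs. The cortical list is at 0.92 and 1.15, cholesterol synthesis at 0.58 and 1.69, and ribosomal proteins at 0.42 and -0.24.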

How the data were processed

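RNA was sequenced from sorted mouse mTECs and cTECs (56 samples, each from 1 mouse, with cTECs and mTECs possibly from the same mouse). Per the labels and methods, the authors made stranded poly(A) libraries, trimmed reads with Trimmomatic 0.35, aligned them to GRCm38 with STAR 2.5.1b and quantified genes with RSEM 1.2.28. The authors deposited, for 50600 genes per sample, the RSEM expected count, which is not normalized and need not be whole (91.44% to 97.96% of values were whole). The FPKM values the authors deposited are scaled by gene length and by depth. Symbols and coordinates came from GENCODE M21, since the annotation release is not given in the sources used here. RSEM shares reads between near-identical copies and overlapping genes, so values of paralogs and of RNAs such as *Gm42418* and *mt-Co2* are uncertain.

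Expected counts were rounded and fitted with limma 3.58.1 (voom) after TMM scaling with edgeR 4.0.16 in R 4.3.3. The fit held the 6 mTEC samples at D-2 and D6 and 17743 genes, those whose FPKM averaged 0.5 or more across all 28 mTEC samples. Calls used Benjamini-Hochberg adjusted p, either at most 0.01 with a fold-change of 2 or more, or at most 0.05. The interaction used the 12 mTEC and cTEC samples. Errors of log2 fold changes are SE and those of FPKM are SD (n = 3). Depth within the 6 ran from 4561208 (D6 replicate 3) to 48195568 counts (D-2 replicate 3). The fits were tested on simulated data. The alternatives were the edgeR quasi-likelihood test, DESeq2 1.42.0, DESeq2 size factors, no TMM, other filters, sample quality weights, all 28 mTEC samples, a replicate block and leaving out each replicate.

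Gene lists (35, holding 1171 genes of which 1120 were tested) were written from general knowledge, with earlier results of these data known, so that neither the members nor the lists are independent of the data. They are described by counts and medians, with no set test. Genes named are the 10 largest increases and decreases under the stricter rule with at least 5 FPKM in the higher group, the first 4 of each list, further called members and members whose groups do not overlap, and called genes of the interaction. Overlap was judged on log2 CPM. Upstream sequences are RefSeq's for GRCm38.p6. Some genes that this rule names are not reported here.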

Additional observations from a re-analysis of the deposited data

Results flagged for a closer look

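The change from D-2 to D6 differed between mTECs and cTECs for 13 genes at an adjusted p of 0.05 (limma-voom interaction, 3 samples per group). The numbers that follow are the log2 change in mTECs minus that in cTECs. 6 genes had a lower value in mTECs, namely *Fabp5* (-2.60), *Fasn* (-2.06), *Fgf14* (-1.99), *Nav2* (-1.75), *Srsf11* (-1.36) and *Usp15* (-1.31). The first 3 of these had a positive change in both cell types that was larger in cTECs, as for *Fgf14*, with log2 changes of 1.04 and 3.02. *Nav2* and *Usp15*, at -0.26 and -0.18 in mTECs, were at 1.51 and 1.13 in cTECs. *Srsf11* had log2 changes of -1.69 in mTECs and -0.33 in cTECs.

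7 genes had a higher value in mTECs, among them *App* (1.37), *Glul* (1.48), *Col6a2* (1.64), *Col6a1* (1.65), *Gsn* (1.72) and *Aldh3a1* (2.32). These 6 had a negative change in cTECs, from -1.41 for *Glul* to -2.07 for *Aldh3a1*, and changes between -0.20 (*Gsn*) and 0.24 (*Aldh3a1*) in mTECs. These include a pair of collagen VI chains (*Col6a1* and *Col6a2*), the actin-severing protein gelsolin (*Gsn*) and glutamine synthetase (*Glul*). The count depends on single libraries: 1 gene was called without any one of mTEC D-2 replicate 1 or 2, mTEC D6 replicate 1 or 3, cTEC D-2 replicate 1 or 2, or cTEC D6 replicate 1.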

How the results depend on the processing

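Beside 18 higher and 35 lower genes under the stricter rule and 171 and 231 at an adjusted p of 0.05, DESeq2 called 97 and 367 under the first and 538 and 924 under the second. Sample quality weights gave 59 and 227, and 661 and 1101. The fit of all 28 mTEC samples gave 1 and 1, and 34 and 53. Without the FPKM filter the stricter rule gave 37 and 68, and edgeR gave 69 lower. Leaving out 1 of the 6 libraries gave 0 to 1 higher and 0 to 11 lower under the stricter rule, and 30 to 159 higher and 71 to 263 lower at 0.05. The replicate block gave 70 lower under the stricter rule and shared 47 of the 53 calls, and the counts at 0.05 moved by less than 1.5 times. mTEC samples with the same replicate number in the labels did not deviate together between D-2 and D6 (correlations -0.0423, -0.0788 and -0.0688), so these numbers were not taken as pairs. The interaction called 13 genes, 41 by edgeR, 30 with a replicate block by the mouse number of the titles (the labels do not say whether cTEC and mTEC samples of 1 number share a mouse) and 1 to 27 when 1 library was left out. The causes of these differences were not tested.

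None of the 402 genes called in mTECs, and none of the 13 of the interaction, changed sign in the alternative fits run. These fits reuse the samples in which the genes were called. A change of sign was thus unlikely beforehand, and its absence is no separate support for the calls. Of the list medians, 71 values moved by more than the spread between D6 samples and 454 did not. With 1 library left out, the mitosis median lay between 0.18 (without D-2 replicate 3) and 1.68 (without D6 replicate 2), and that of the cortical list between 0.64 (without D-2 replicate 2) and 1.18 (without D6 replicate 1). D6 replicate 3 is the shallowest library, so genes of a few FPKM have the least support there.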

Other observations

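Genes named here lie outside the rule and were chosen after their values were seen. Some transcription factors of epithelial differentiation were among those that fell, and no count over such genes was made. *Sox9*, of ducts and progenitors in many epithelia, was at 281, 192 and 166 FPKM at D-2 and at 94.7, 78.8 and 87.5 FPKM at D6 (limma-voom log2 fold change -1.24 ± 0.19, SE, adjusted p = 0.0128). *Gata3*, of skin and parathyroid, was at 17, 17 and 12.8 FPKM and then at 3.31, 5.72 and 3.36 FPKM (-1.85 ± 0.29, adjusted p = 0.0126). *Klf5*, *Klf13* and *Maf* fell by 1.73, 1.34 and 1.31 on the log2 scale.

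Of genes of secreted proteins, *Grp*, *Ccl25*, *Tnc* and *Mmp9* were among those that rose, as described above. Others fell, and no count of either was made. *Thbs1*, a matrix glycoprotein that activates latent TGF-beta, was at 29.6, 26.3 and 40.3 FPKM and then at 11, 5.79 and 2.85 FPKM (-2.28 ± 0.37, adjusted p = 0.0151). *Igf2*, a growth factor, was at 8.19, 15.1 and 14.7 FPKM and then at 8.46, 2.48 and 1.52 FPKM (-2.20 ± 0.49, adjusted p = 0.0481), with D6 replicate 1 at the level of D-2 replicate 1. *Edn1* (endothelin) was at 6.82, 4.39 and 5.11 FPKM and then at 0.69, 1.15 and 1.07 FPKM (-2.50 ± 0.54, adjusted p = 0.0434). Apart from genes of secreted proteins, *Neat1*, a nuclear RNA, was at 31.8, 20.8 and 22.4 FPKM and then at 12.2, 12.9 and 9.02 FPKM (-1.24 ± 0.22, adjusted p = 0.0198).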
